A study of Mus musculus with 59 samples.

Results

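Mitochondrial ribosomal proteins are the protein components of the ribosome that works inside mitochondria. They were taken here as every gene of the deposited table whose symbol is Mrpl or Mrps followed by a number and at most 1 letter, with pseudogenes left out. The rule gave 78 genes of the 51456 listed, 49 Mrpl genes counted as the large subunit and 29 Mrps genes counted as the small subunit. All 78 had a mean normalized count of at least 10 and entered the fits.

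The mitochondrial ribosome translates the few messages that mitochondrial DNA still encodes, all of them subunits of the respiratory chain and of ATP synthase. Its RNAs come from the mitochondrial genome, while all of its proteins are encoded in the nucleus, made in the cytosol and imported. The large subunit joins amino acids and carries the exit tunnel, and the small subunit reads the codons. Compared with the bacterial ribosome from which it descends, it has lost RNA and gained proteins, so some members have bacterial relatives and others occur only in mitochondria. Neurons depend heavily on respiration, and inherited defects of several of these proteins cause disease of the brain or the heart.

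The data were poly(A) RNA-seq of prefrontal cortex from C57BL/6J mice on postnatal day 25, from a study of mice heterozygous for the Chd8-S62X allele (HT) and wild-type mice (WT). Chd8 codes for an ATP-dependent remodeller of chromatin and is an autism gene. Fluoxetine, a serotonin reuptake inhibitor, lithium, or vehicle reached the pups in their mothers' milk from day 3 to day 24. Of the 12 groups of genotype, treatment and sex, 11 held 5 libraries and the HT fluoxetine females 4, 59 in all. All groups shared the strain and the age, and the labels describe 1 allele, with no detail of what the vehicle was. The labels give no dose and name no dam or litter, and they do not say that each library is a different animal, so the p-values measure the spread between these libraries, part of which may come from the litter or be technical.

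Values are normalized counts, taken here as Salmon read estimates divided by a factor for each library. They summed to between 30342634 and 33683928 per library. On that reading the estimated depth was 25766836 to 36884385 reads. Of a library's lower values, only 4.19% to 20.7% were whole multiples of the commonest low value, taken as a single read. Whether the factor also differed between genes was not tested, and the depth estimate depends on this reading. Chd8 itself was higher in the libraries labelled HT, at 5115, 5907 and 6626 (lowest, median and highest of 29), than in those labelled WT, at 2828, 3635 and 4229 (30 libraries). The ratio was 1.57 to 1.73 in the 6 strata of treatment and sex, with an exact two-sided permutation p of 0.00794 or, for the stratum with 4 libraries, 0.0159. This goes against a loss of Chd8 RNA, so libraries are named by their label, HT-labelled or WT-labelled, and the genotype directions below hold only for the labels as given. In 8 libraries the mean level of striatal marker genes was more than 5 robust SDs above the median library. They were HT-labelled fluoxetine females 1 and 2, lithium female 5, lithium males 1 and 4 and vehicle female 3, and WT-labelled lithium male 2 and vehicle female 5. The defining cortical marker Slc17a7 was at 33642 to 57827 in all libraries. Results are given with and without those 8. Olfactory bulb markers differed widely between libraries, Cdhr1 from 97.2 to 8300 and Eomes from 2.15 to 1433 normalized counts, and the mean log2 level of the 5 bulb markers ran from 4.60 to 11.09 (median 8.24). The first principal component of the log2 values, with 19.4% of their variance, rose with that level over the 59 libraries (r = 0.932, a description). In HT-labelled libraries the bulb level also went with the replicate number in the titles. It was 4.8 to 6.17 in the 6 libraries numbered 1 and 9.48 to 10.66 in the 6 numbered 4, while the WT-labelled libraries of these numbers overlapped (5.34 to 9.98 and 6.62 to 9.80). The labels do not say what a number stands for. The values come from bulk tissue, where fewer cells of a type and less RNA per cell cannot be told apart.

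The 78 genes were expressed in every library, the lowest single value being 70.3 for Mrpl23. Together they made up 0.168% to 0.189% of a library's summed normalized count, with a median of 0.177%. Mean normalized counts ran from 133 for Mrpl23 to 1844 for Mrpl3, with a median of 727 over the genes. The genes lie on 17 chromosomes, with 11 of them on chromosome 11 and 8 on chromosome 17.

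Per kilobase of annotated transcript, the median level was 544 normalized counts for the large subunit and 470 for the small, and the ranges, 122 to 2544 and 118 to 1977, overlapped almost wholly. Mrpl20 was the most abundant per kilobase at 2544, followed by Mrps17 at 1977, Mrps33 at 1956, Mrps21 at 1835 and Mrpl42 at 1615. The lowest were Mrps35 at 118, Mrpl1 at 122, Mrpl47 at 134, Mrps30 at 136 and Mrpl32 at 165 normalized counts per kilobase. Message levels per kilobase thus differed widely within the family. The 3 paralogues of one bacterial protein, Mrps18a, Mrps18b and Mrps18c, stood at 1117, 477 and 605 normalized counts per kilobase. These levels depend on which annotated transcripts are used, since the median length of each gene's coding transcripts served as its length.

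**Figure D1:**
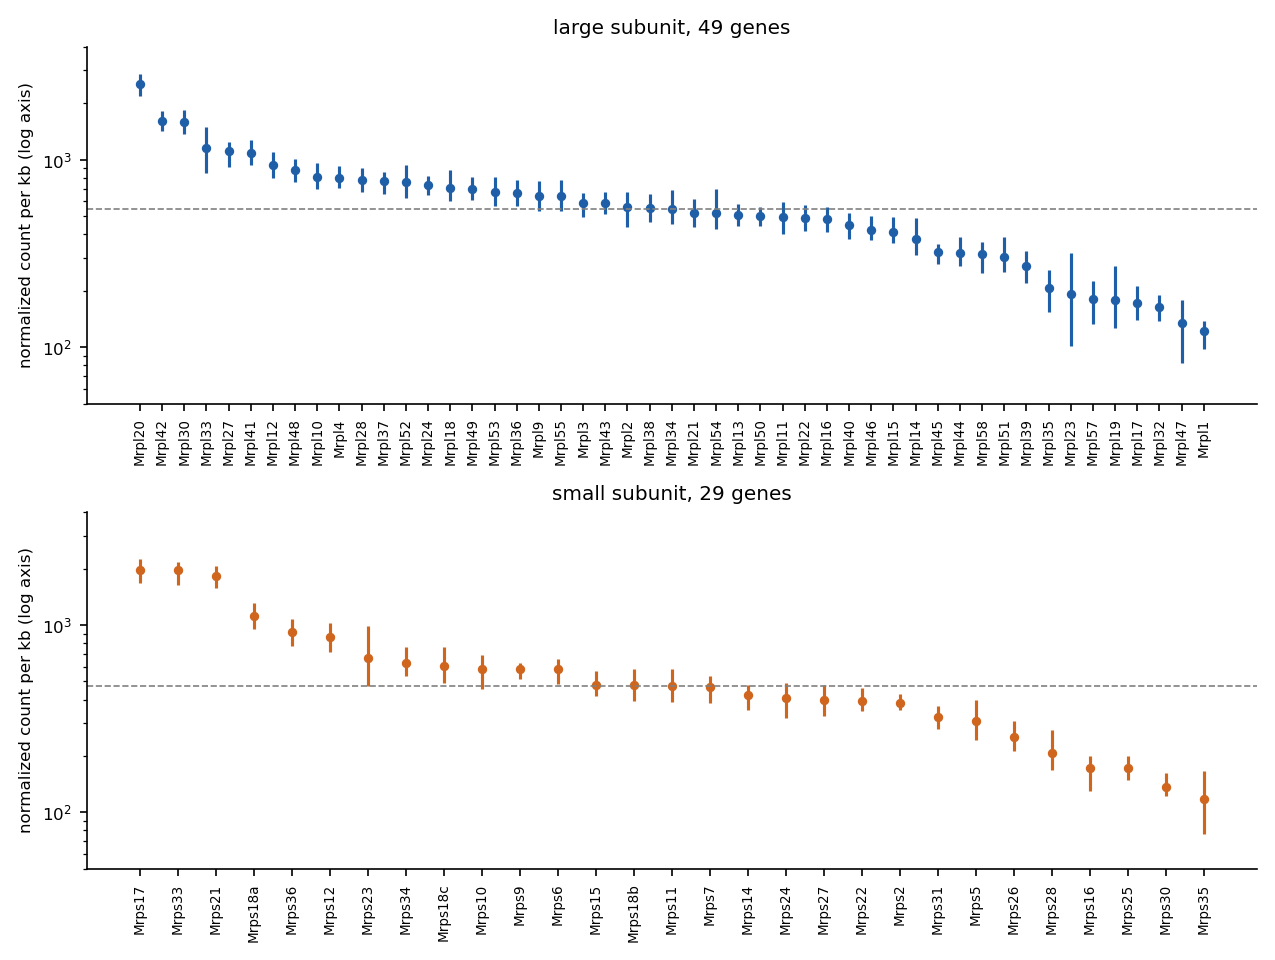
Mean normalized count per kilobase of each gene over 59 libraries (points, log axis), with lines from the lowest to the highest library, and the median of each subunit as a dashed line. Levels run from 118 (Mrps35) to 2544 (Mrpl20), and Mrpl23 has the widest range between libraries.

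The levels varied little between libraries. The coefficient of variation over the 59 libraries had a median of 7.20% (7.13% in the large and 7.43% in the small subunit), against 10.3% among the 8085 tested genes with means in the same range. Mrps2, at 4.03%, Mrps9, at 4.52%, Mrpl50, at 4.70%, and Mrpl49, at 5.10%, varied least. Mrpl23 varied most, at 26.2%, then Mrpl19 at 17.1%, Mrps23 at 16.6%, Mrps35 at 15.3% and Mrpl47 at 14.4%. A gene's values include the error of dividing reads among similar transcripts. This was checked by sequence only for copies annotated as pseudogenes, and matches to other kinds of genes were not counted. Of the 78 genes, 18 have such a copy that matches a transcript at 95% identity or more over at least 200 bases, 23 copies in all. Of the copies, 22 had mean values of at most 0.218, and the exception was the copy of Mrpl23, described with that gene.

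Between genotypes, averaged over treatments and sexes, 3 of the 78 genes passed the test and the rest differed little. Mrpl33 fell in HT-labelled libraries, and Mrpl23 and Mrps10 rose. The test here and below was limma on log2(normalized count + 1) over 12 group means, with Benjamini-Hochberg adjustment over all 16839 genes tested and a gene called at an adjusted p under 0.05. Of all tested genes, 7.98% were called in this comparison, 3.67% higher and 4.31% lower, and 3 of 78 is a smaller share than that.

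Mrpl33 encodes a small protein of the large subunit with a bacterial relative, and lies at chr5:31596935-31664384 (GRCm38). Its normalized counts in HT-labelled libraries were 408, 519 and 616 (lowest, median and highest, mean 519 ± 50.2 SD, n = 29). In WT-labelled libraries they were 489, 573 and 717 (mean 587 ± 61.1, n = 30). The ranges overlapped, with the HT-labelled libraries lower on the whole. The log2 fold change was -0.18 ± 0.037 (SE; limma adjusted p = 0.00135), and it was below 0 in each of the 6 strata, from -0.23 to -0.14.

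Mrps10, at chr17:47368887-47381417, encodes a protein of the small subunit's head with a bacterial relative. HT-labelled libraries had 526, 646 and 735 normalized counts (lowest, median and highest, mean 645 ± 44.3 SD, n = 29), and WT-labelled libraries 483, 606 and 723 (mean 598 ± 52.9, n = 30). The groups overlapped over most of their range. Averaged over strata, the log2 fold change was 0.11 ± 0.027 (limma adjusted p = 0.00438). It was above 0 in all 6 strata but ranged from 0.0021 in fluoxetine males to 0.26 in lithium males, where 4 of the 5 WT-labelled values lay between 530 and 546 and the fifth at 483.

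Mrpl23, at chr7:142532686-142540747, encodes a protein at the exit of the peptide tunnel. It had the largest fold change and the lowest mean of the 78 genes. HT-labelled libraries had 82.8, 152 and 221 normalized counts (lowest, median and highest, mean 151 ± 30.3 SD, n = 29), and WT-labelled libraries 70.3, 116 and 181 (mean 116 ± 30.2, n = 30). The log2 fold change was 0.39 ± 0.091 (limma adjusted p = 0.00383), above 0 in 6 of 6 strata and from 0.12 to 0.61.

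The value of Mrpl23 cannot be separated from that of its copy. Mrpl23-ps1, a processed pseudogene, is identical to Mrpl23 over 540 bases, and it held more of the assigned reads than the gene did, at 281 to 425 normalized counts per library. Mrpl23 made up 18.0% to 38.7% of the 2 together in HT-labelled libraries, with a median of 30.3%, and 14.9% to 37.7% in WT-labelled ones, with a median of 24.2%. Summed, gene and copy had 521 ± 35.6 normalized counts in HT-labelled libraries (460.2 to 584) and 471 ± 31.8 in WT-labelled libraries (398 to 554). The log2 fold change of the sum was 0.14 (limma adjusted p = 0.000159) against 0.39 for the gene alone. The difference therefore held for the sum and was smaller there, and which of the 2 loci the reads came from was not tested.

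**Figure D2:**
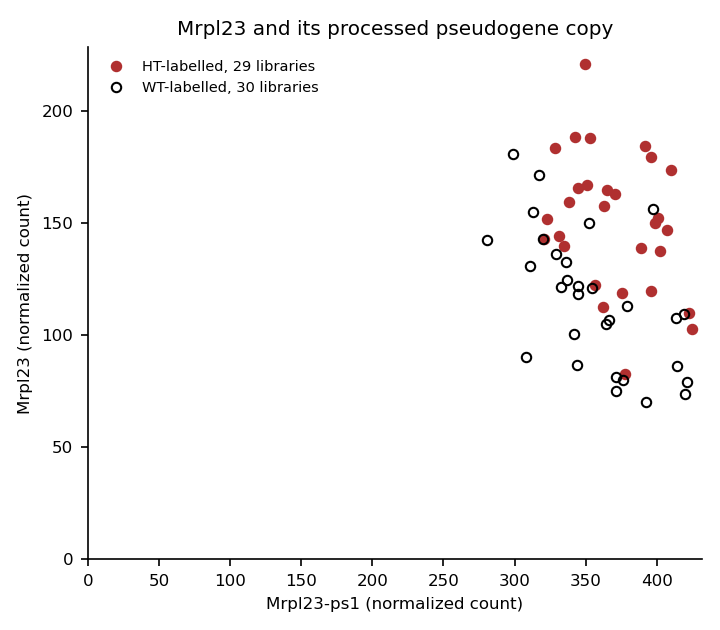
Normalized counts of Mrpl23 (vertical axis) and of the copy Mrpl23-ps1 (horizontal axis) in 29 HT-labelled and 30 WT-labelled libraries, 1 point per library. The copy lies at 281 to 425 and the gene at 70.3 to 221, and HT-labelled points lie higher at like values of the copy, with overlap.

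No other member was called by genotype. The lowest p-values after these were those of Mrpl37 in the large subunit, specific to mitochondria, with a log2 fold change of -0.06 (limma adjusted p = 0.0651), and in the small subunit of Mrps18c at -0.07 (adjusted p = 0.163) and Mrps28 at -0.07 (adjusted p = 0.170). At an unadjusted p under 0.05 there were 3 higher and 12 lower, of 78; among all tested genes 11.1% were higher and 13% lower at that level. In the large subunit 19 of 49 log2 fold changes were above 0, with a median of -0.013. In the small subunit 9 of 29 were above 0, with a median of -0.019. Over all tested genes 50.8% were above 0 and the median was 0.0016. Both subunits thus lay slightly below all genes, by about as much as each other. The median SE of a single member's averaged genotype difference was 0.0254, and the subunit medians themselves were not tested. Above 0 in all 6 strata were 1 large (2.04%) and 1 small subunit gene (3.45%), against 7.21% of all tested genes. Below 0 in all 6 were 3 large (6.12%) and 1 small subunit gene (3.45%), against 9.15%. These strata make up the averaged comparison, so their agreement is no separate support for its calls. Olfactory bulb markers lay above 0 by genotype for 5 of 5 genes (median 0.30, none called). With the first principal component as a covariate the 3 called genes still passed, Mrpl33 at -0.15, Mrpl23 at 0.43 and Mrps10 at 0.11, and Mrpl3 passed in addition (-0.06, adjusted p = 0.0311).

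**Figure D3:**
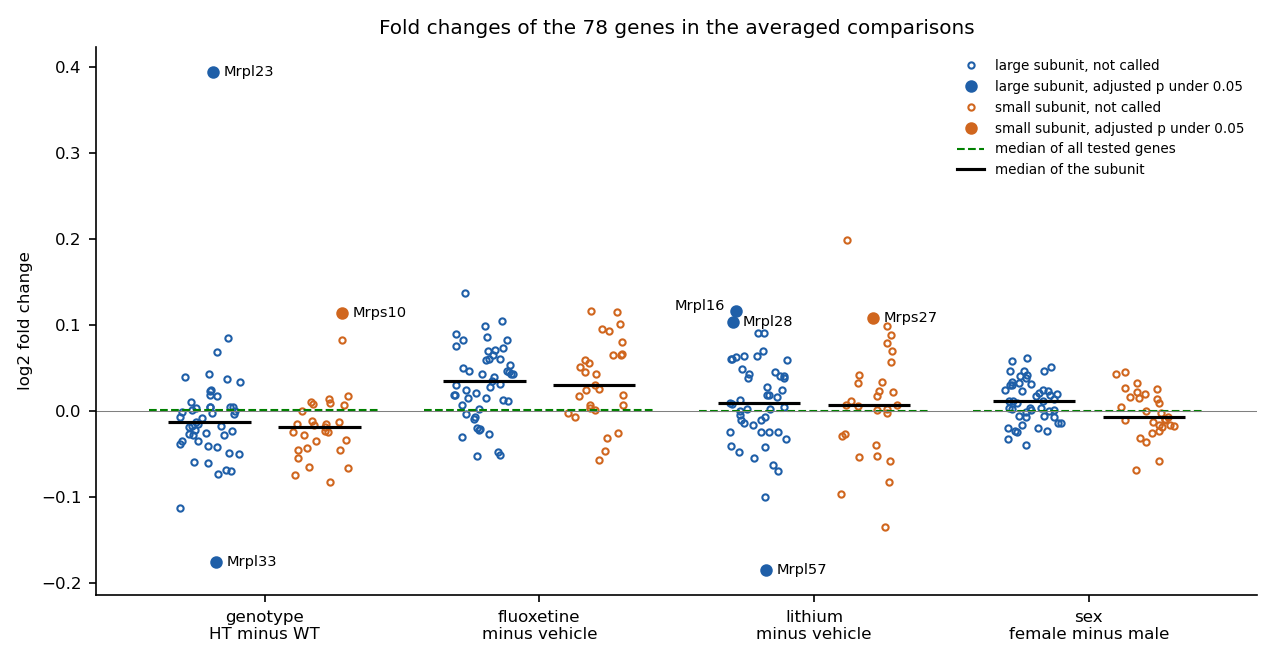
Log2 fold change of each of the 78 genes in 4 averaged comparisons, large subunit in blue and small in orange, filled where the adjusted p is under 0.05. Black lines are subunit medians and green dashed lines the median of all tested genes; only the named genes pass, and the fluoxetine medians (0.035 and 0.030) lie farthest from 0.

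In the fluoxetine comparison, averaged over genotypes and sexes, no member was called over all 59 libraries, but most lay above 0. Of the 78 log2 fold changes 61 were positive, 38 of 49 in the large subunit with a median of 0.035 and 23 of 29 in the small with a median of 0.030. The median of all tested genes was 0.0015. In limma's test 0 members were called, against 0.0653% of all tested genes (11 genes). At an unadjusted p under 0.05, 20 members were higher and 0 lower, against 6.63% higher and 5.3% lower of all tested genes. Members share libraries and are not replicates, so these counts carry no test of their own.

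Mrps26, specific to mitochondria, came nearest to a call. Vehicle libraries had 911, 1043 and 1191 normalized counts (lowest, median and highest of 20) and fluoxetine libraries 917, 1138 and 1316 (19 libraries). The groups overlapped, with the fluoxetine median higher. On the log2 scale the difference was 0.12 ± 0.031 (limma adjusted p = 0.106). It passed in some of the other fits, among them those without HT-labelled fluoxetine male 4 (0.13, adjusted p = 0.0486) or HT-labelled vehicle male 1 (0.13, adjusted p = 0.0375). Mrpl14, which has a bacterial relative, stood at 200.4, 233 and 267 in vehicle libraries and at 218, 258 and 317 in fluoxetine libraries, a log2 fold change of 0.14 ± 0.038 (limma adjusted p = 0.127). Mrps7 (0.10, adjusted p = 0.186), Mrpl28 (0.09, adjusted p = 0.188), Mrps18b (0.12, adjusted p = 0.203) and Mrpl21 (0.08, adjusted p = 0.286) followed in limma's test.

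The positive lean with fluoxetine was unequal between the strata. In WT-labelled males the medians were 0.069 and 0.072 for the large and small subunit, with 39 of 49 and 23 of 29 genes above 0. In the other 3 strata the medians ran from 0.015 to 0.029. Averaged over sexes they were 0.043 and 0.054 in WT-labelled and 0.022 and 0.017 in HT-labelled libraries. Above 0 in all 4 strata were 11 large (22.4%) and 8 small subunit genes (27.6%), against 12.3% of all tested genes. Below 0 in all 4 were 1 large (2.04%) and 1 small subunit gene (3.45%), against 10.7%. The HT-labelled and WT-labelled responses were compared directly by the interaction of genotype and fluoxetine, which called 0 members in limma's test and 0% of all genes, with 1 member higher and 4 lower at an unadjusted p under 0.05 (all genes 6.18%).

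Other gene groups of the same kind had like values. The median log2 fold change with fluoxetine was 0.044 for 81 cytosolic ribosomal protein genes and 0.033 for 83 nuclear genes of oxidative phosphorylation. Markers of other tissue and cell types lay to one side in this comparison: olfactory bulb markers were below 0 for 5 of 5 genes (median -0.64), inhibitory neuron markers for 8 of 8 (-0.22) and meningeal markers for 8 of 8 (-0.26), and excitatory neuron markers were above 0 for 9 of 9 (0.09), none of them called. The part of tissue composition in the members' values was not tested beyond the fits without the 8 libraries and with composition covariates, in which the fluoxetine medians stayed between 0.025 and 0.035.

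With lithium, averaged over genotypes and sexes, 1 member fell and 3 rose. Mrpl57 was lower, and Mrpl16, Mrps27 and Mrpl28 were higher than with vehicle, in limma's test. Of all tested genes 4.41% were called, 2.8% higher and 1.61% lower, so 4 of 78 is close to the background share. The fluoxetine and lithium comparisons use the same 20 vehicle libraries, so their values are not independent of each other.

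The promoters of the 4 lithium-called genes are printed because these genes changed in the same comparison. Each line gives the bases before the gene's annotated start, up to 150 of them, 5′ to 3′ on the gene's own strand, from RefSeq on GRCm38.p6. Capitals mark a match to a motif searched for: CCGGAAG of ETS factors, the NRF1 palindrome with 1 free base, AAGATGGCG of YY1 or TATAAA, on either strand and with overlaps between motifs allowed. ETS factors, NRF1 and YY1 are known regulators of nuclear genes for mitochondria. Mrpl16 is from chr19:11770265-11770390, with TATAAA. Mrpl57 is from chr14:57826089-57826233, with an NRF1 match. Mrps27 is from chr13:99344636-99344785, with an ETS match on the opposite strand. Mrpl28 is from chr17:26123353-26123499, with none of the 4.
Mrpl57: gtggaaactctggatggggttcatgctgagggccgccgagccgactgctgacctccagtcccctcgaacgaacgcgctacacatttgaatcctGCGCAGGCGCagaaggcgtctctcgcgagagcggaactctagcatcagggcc
Mrpl16: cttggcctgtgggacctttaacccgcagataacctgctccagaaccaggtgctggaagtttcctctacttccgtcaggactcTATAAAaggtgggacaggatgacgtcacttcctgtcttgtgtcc
Mrps27: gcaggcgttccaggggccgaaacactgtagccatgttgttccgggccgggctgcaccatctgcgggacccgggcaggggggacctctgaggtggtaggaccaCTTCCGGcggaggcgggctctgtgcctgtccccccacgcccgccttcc
Mrpl28: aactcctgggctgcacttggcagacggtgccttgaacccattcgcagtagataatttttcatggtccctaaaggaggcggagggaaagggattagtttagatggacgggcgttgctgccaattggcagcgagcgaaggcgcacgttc
The 3 genes that rose thus held a TATAAA match, an ETS match and none, with no motif in common. A match is a description of the letters, not a binding site.

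Over the family, 69 of the 78 genes had a promoter in the table, and the search covered the 150 bases before the listed start. An ETS match was found in 15 of 69 (21.7%), against 11.5% of the 12162 tested genes with a promoter and 6.33% of all 27025 promoters of the same length. It was about as frequent in the large subunit, in 10 of 43, as in the small, in 5 of 26. An NRF1 match was found in 10 of 69 (14.5%), against 6.93% of tested and 3.55% of all genes. It was in 9 of 43 large subunit promoters (20.9%) and 1 of 26 small subunit promoters (3.85%). For comparison, an NRF1 match was found in 18.6% of oxidative phosphorylation promoters and in 1.56% of cytosolic ribosomal protein promoters. YY1 matches were in 2 of 69 (2.90%; tested genes 0.822%) and TATAAA in 2 of 69, Mrpl16 and Mrpl46 (2.90%; tested genes 4.57%). The GC content, on which such matches depend, had a median of 61.3% in the members and 62.7% in the tested genes.

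Mrpl57 encodes a small protein of the large subunit that occurs only in mitochondria (gene at chr14:57826234-57829296). Vehicle libraries had 473, 542 and 632 normalized counts (lowest, median and highest, mean 549 ± 43.8 SD, n = 20), and lithium libraries 383, 488 and 604 (mean 485 ± 55.0, n = 20). The groups overlapped, and the lowest lithium values were in WT-labelled males, 3 of which lay at 383, 406 and 408. Lithium minus vehicle came to -0.19 ± 0.044 on the log2 scale (limma adjusted p = 0.00833), below 0 in 4 of 4 strata. With fluoxetine it was -0.05 (adjusted p = 0.68).

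Mrpl16, a large subunit protein with a bacterial relative (chr19:11770391-11774960), had 478, 543 and 601 normalized counts with vehicle and 512, 590.4 and 648 with lithium (lowest, median and highest of 20 libraries each). The medians stood apart and the ranges overlapped. The difference came to 0.12 ± 0.028 on the log2 scale (limma adjusted p = 0.00953), above 0 in 4 of 4 strata.

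Mrps27 encodes a small subunit protein with RNA-binding pentatricopeptide repeats, found only in mitochondria (chr13:99344786-99415562). It stood at 603, 720.3 and 793 normalized counts with vehicle and at 678, 759 and 888 with lithium. The highest value was in an HT-labelled male, and the ranges overlapped. Its log2 fold change was 0.11 ± 0.027 (limma adjusted p = 0.0129), above 0 in 4 of 4 strata.

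Mrpl28, a large subunit protein with a bacterial relative (chr17:26123500-26126613), stood at 702, 784 and 848 normalized counts with vehicle and at 727, 831 and 946 with lithium. Here the log2 difference was 0.10 ± 0.028 (limma adjusted p = 0.0201), above 0 in 4 of 4 strata. Without the 8 libraries of high striatal marker level the value was the same, 0.10, but no longer passed (adjusted p = 0.0637). The other 3 genes passed without them, Mrpl57 at -0.19 (adjusted p = 0.0142), Mrpl16 at 0.12 (0.0210) and Mrps27 at 0.13 (0.00772), and Mrps24 at -0.17 (0.0341) and Mrps23 at 0.25 (0.0301) passed in addition.

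**Figure D4:**
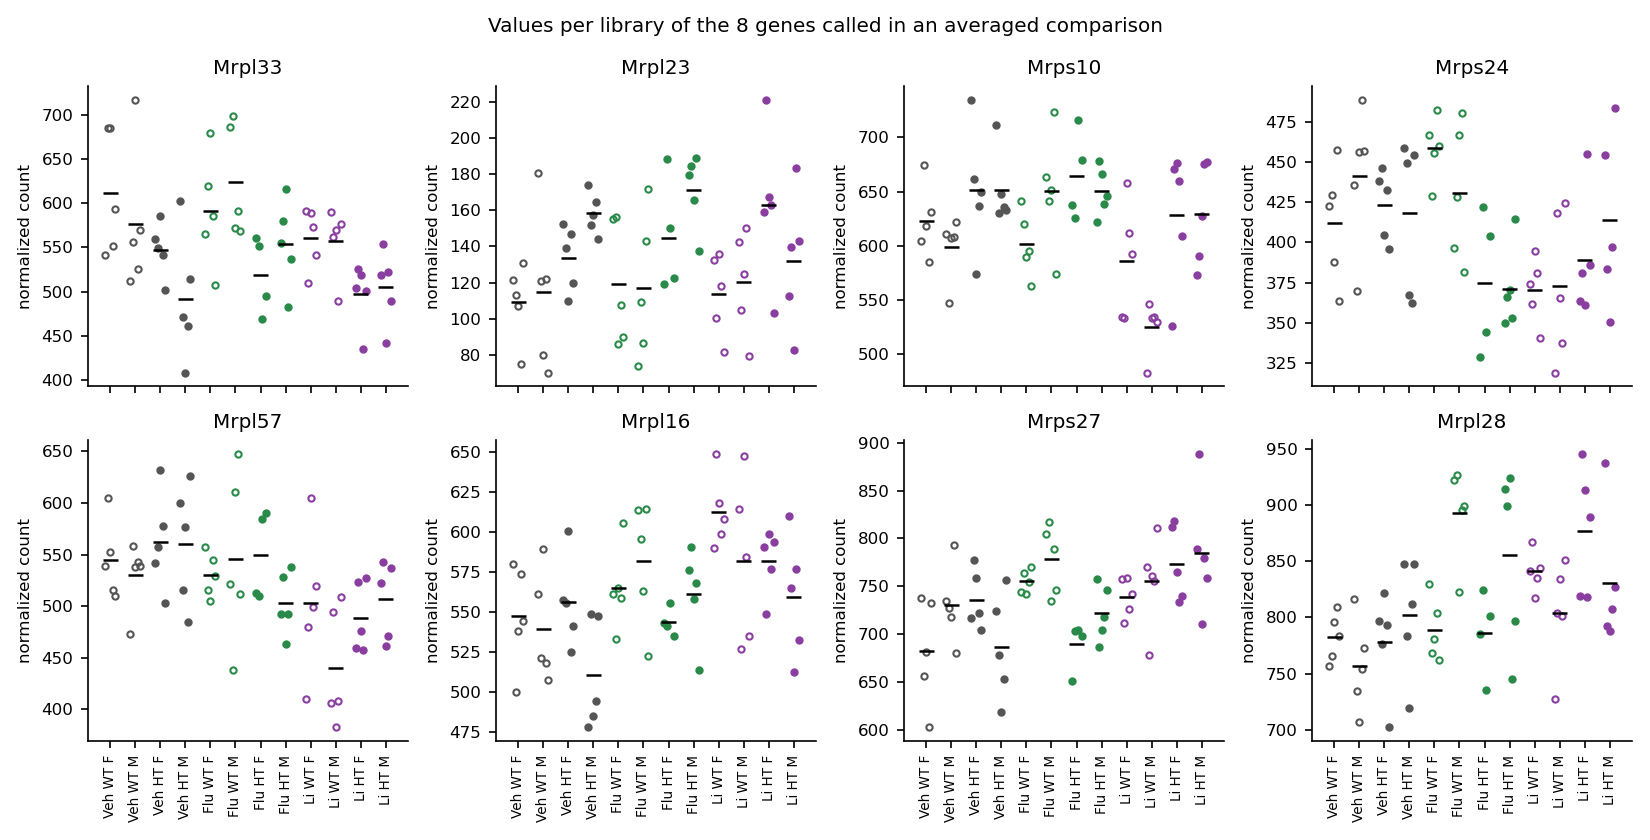
Normalized counts of the 8 genes called in a comparison averaged over strata or sexes, 1 point per library in 12 groups of treatment (Veh vehicle, Flu fluoxetine, Li lithium), label (WT open, HT filled) and sex (F, M), with group means as lines; the axes do not start at 0. The ranges of the 2 sides of each call, pooled over sexes and strata, overlap for all 8 genes: Mrpl33 is lower in HT-labelled libraries, Mrpl57 lower with lithium, and Mrps24 lower in HT-labelled fluoxetine libraries.

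The medians of the family with lithium were near 0. Of the large subunit genes 30 of 49 were above 0, with a median of 0.010, and of the small subunit genes 19 of 29, with a median of 0.007, against a median of -0.0004 over all tested genes. At an unadjusted p under 0.05, 13 members were higher and 6 lower (all tested genes 10.2% and 8.57%). Above 0 in all 4 strata were 11 large (22.4%) and 5 small subunit genes (17.2%), against 15.9% of all tested genes, and below 0 in all 4 were 5 (10.2%) and 2 (6.90%), against 15.1%. Nuclear genes of oxidative phosphorylation had a median of 0.042 with 18 of 83 called higher and 0 lower, and cytosolic ribosomal proteins a median of -0.012. Striatal markers lay above 0 with lithium for 12 of 12 genes (median 0.24, 1 called higher), meningeal markers for 0 of 8 (-0.33, 2 called lower) and red cell genes for 0 of 5 (-0.37, none called). Of the choroid plexus markers, Kcne2 was at 0 in 15 libraries and Ttr between 0 and 3501. Olfactory bulb markers lay below 0 for 5 of 5 (-0.27, none called). With the striatal marker level as a covariate the 4 members called with lithium all passed. With the first principal component as a covariate they passed too, Mrps24 (-0.14, adjusted p = 0.0375) and Mrpl9 (0.10, adjusted p = 0.0292) in addition, and the subunit medians were 0.003 and -0.003. Beyond these fits and the one without the 8 libraries, the part of tissue composition was not tested.

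No member was called between females and males. In limma's test 0 of 78 passed (0.154% of all tested genes), and 2 were higher in females and 0 lower at an unadjusted p under 0.05 (all tested genes 3.84% and 4.01%). The lowest p-values were those of Mrpl15 (log2 fold change 0.06, adjusted p = 0.529), Mrpl40 (0.06, adjusted p = 0.635) and Mrpl43 (0.04, adjusted p = 0.644) in the large subunit, and of Mrps9 (0.03, adjusted p = 0.694), Mrps11 (-0.06, adjusted p = 0.734) and Mrps7 (-0.04, adjusted p = 0.755) in the small. The medians were 0.012 and -0.007, with 33 of 49 and 12 of 29 genes above 0.

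Within single treatments, Mrps24 was the only member called by genotype in limma's test. It fell in HT-labelled fluoxetine libraries, where 0.849% of all tested genes were called, 0.463% lower. At an unadjusted p under 0.05, 1 member was higher and 14 were lower, against 14.7% of all genes in either direction. Mrps24 encodes a small subunit protein with a bacterial relative that lies near the entry of the message (chr11:5703983-5715680). The HT-labelled females had 329, 422, 345 and 404 normalized counts and the HT-labelled males 349.9, 366, 371, 353 and 415. The WT-labelled females had 467, 429, 455, 482 and 459.9 and the males 397, 428, 467, 480.3 and 382. In females all HT-labelled values lay below all WT-labelled ones, and in males the highest HT-labelled value, 415, lay above 2 of the WT-labelled. The log2 fold change was -0.25 ± 0.064 (limma adjusted p = 0.0365).

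The call of Mrps24 is a narrow one. It was lost without the 8 libraries of high striatal marker level (log2 fold change -0.25, adjusted p = 0.101) and without any 1 of 11 of the fluoxetine libraries. These were HT-labelled females 1 and 3 and males 1 to 4, and WT-labelled females 3 to 5 and males 3 and 4, with values of -0.28 to -0.22 and an adjusted p of at most 0.0964 over all 59 fits that left out 1 library. In HT-labelled fluoxetine libraries striatal markers had higher means than in WT-labelled ones for 12 of 12 genes (median 0.48) and oligodendrocyte markers for 9 of 9 (0.50). The genotype difference of Mrps24 was -0.02 with vehicle and 0.11 ± 0.062 with lithium (adjusted p = 0.567), and the interaction of genotype and fluoxetine was -0.24 ± 0.089 (unadjusted p = 0.0108, adjusted p = 0.653), so a difference between treatments was not established.

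The other comparisons within a treatment or a genotype called 0 members in limma's test. For genotype in vehicle libraries 0.202% of all genes were called. Unadjusted, 2 members were higher and 3 lower there, against 10.6% of all genes in either direction. For genotype in lithium libraries 0.267% were called, and unadjusted 3 members were higher and 1 lower (all genes 10.1%). Fluoxetine in HT-labelled libraries called 0% of all genes, and unadjusted 8 members were higher and 1 lower (all genes 5.09%). In WT-labelled libraries it called 0.19%, and unadjusted 13 were higher and 0 lower (all genes 12.5%). The lowest limma adjusted p there was 0.0668, for Mrps26 (0.17). The WT-labelled fluoxetine libraries also enter the genotype comparison in fluoxetine libraries, so the counts of these comparisons are not independent. Lithium in HT-labelled libraries called 0.238%, with 12 higher and 2 lower unadjusted (all genes 10.2%), and in WT-labelled libraries 0.214%, with 6 and 6 (all genes 11.9%). The interaction of genotype and lithium called 0% of all genes and 0 members, with 4 higher and 1 lower at an unadjusted p under 0.05 (all genes 2.29%).

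The 14 comparisons within 1 sex called 0 members each in limma's test and 0%, 0.0238%, 0.0297%, 0.0475% or 0.0534% of all genes. Counted at an unadjusted p under 0.05, the most members lay above vehicle with fluoxetine in WT-labelled males, 15 higher and 2 lower (9.41% of all genes in either direction). HT-labelled males had 8 and 0 (4.47%), HT-labelled females 2 and 0 (3.23%) and WT-labelled females 7 and 0 (7.78%), so in 3 of the 4 strata no member was lower at that level. By genotype the most lower members were in fluoxetine males, 1 higher and 12 lower (10.5%). This comparison and that of fluoxetine in WT-labelled males use the same 5 WT-labelled fluoxetine male libraries, so their counts are not independent of each other. Those libraries had the highest group means of both subunits, 9.44 for the large and 9.41 for the small. Vehicle females had 6 and 2 (5.75%), vehicle males 2 and 4 (8.18%), fluoxetine females 1 and 3 (7.19%), lithium females 6 and 0 (5.04%) and lithium males 3 and 2 (9.44%). The all-gene shares here are for either direction together, so no lean of the members is read from these genotype counts. With lithium, HT-labelled females had 7 and 1 (5.99%), HT-labelled males 5 and 2 (5.81%), WT-labelled females 4 and 0 (6.56%) and WT-labelled males 1 and 8 (9.32%). The median SE of a member in such a comparison was 0.0616, so a difference near 0.1 was not detectable in 1 stratum.

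The mean log2 level per library was 9.29 to 9.48 for the large and 9.23 to 9.45 for the small subunit. The large subunit was above the small in every library, by 0.009 to 0.105 (median 0.060, SD 0.0231). That difference was 0.0594 ± 0.0224 in HT-labelled and 0.0509 ± 0.0233 in WT-labelled libraries (mean ± SD). It was 0.0568 with vehicle, 0.0530 with fluoxetine and 0.0553 with lithium. Females had 0.0623 ± 0.0210 (n = 29) and males 0.0480 ± 0.0231 (n = 30). Among the 12 groups the mean ran from 0.0364 ± 0.0185 in WT-labelled fluoxetine males to 0.0812 ± 0.0177 in HT-labelled fluoxetine females. Gaps between groups in this difference were not tested. The summed normalized counts of the large subunit were 1.71 to 1.83 times those of the small. These sums cover 49 large and 29 small subunit genes, so the ratio includes the difference in gene number. Neither the sums nor the mean levels were divided by transcript length. The median length was 1230 bases for the large and 1063.5 bases for the small subunit genes. Division by a fixed length per gene would shift the difference by almost the same amount in every library. The median lengths give neither the size nor the sign of that shift, which was not computed. Whether the large subunit stayed above the small in every library after such a correction was therefore not tested.

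**Figure D5:**
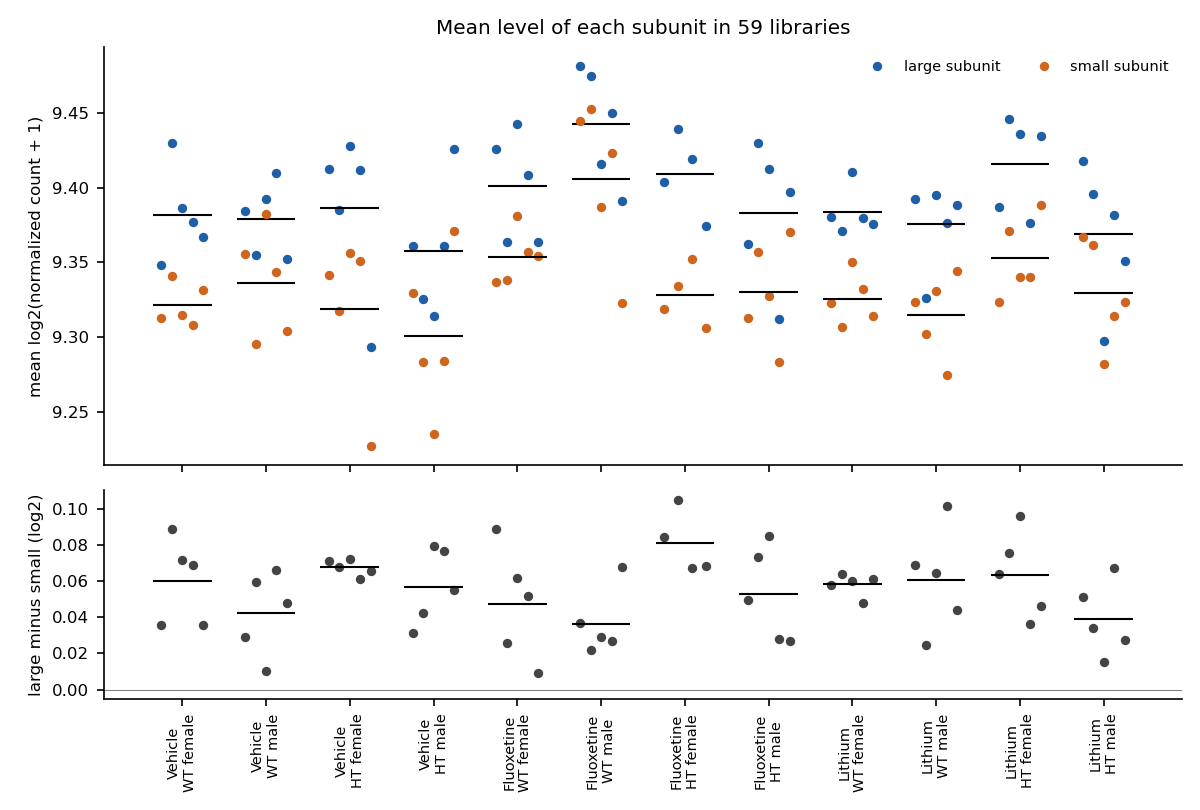
Upper panel: mean log2(normalized count + 1) of the 49 large (blue) and 29 small (orange) subunit genes in each library of 12 groups, with group means as lines; lower panel: the difference between them. The means lie between 9.23 and 9.48, WT-labelled fluoxetine males have the highest group means, and the difference stays between 0.009 and 0.105.

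The symbols do not follow the known structure in 3 cases. The proteins of Mrps18a and Mrps30 sit in the large subunit, and that of Mrps36 is now known as part of the oxoglutarate dehydrogenase complex. With the genes regrouped in that way, after the data had been seen, into 51 and 26, the medians of the large and small subunit were -0.013 and -0.024 for genotype, 0.035 and 0.028 for fluoxetine, 0.008 and 0.009 for lithium and 0.011 and -0.008 for sex. No median changed sign. Mrps18a, Mrps18b and Mrps18c, which occupy different places on the ribosome, had genotype log2 fold changes of -0.01, -0.01 and -0.07, fluoxetine values of 0.07, 0.12 and 0.02 and lithium values of 0.01, 0.00 and 0.00, none called.

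After removal of the 12 group means, the members covaried weakly over the 59 libraries. The median pairwise Pearson r was 0.113 within the large subunit, 0.087 within the small and 0.096 between them. It was -0.001 over all pairs of tested genes, 0.278 within nuclear oxidative phosphorylation genes and 0.395 within cytosolic ribosomal proteins. Members correlated more with oxidative phosphorylation genes (0.152) than with cytosolic ribosomal proteins (0.040). Mrpl12, the stalk protein (r = 0.663 with the mean of the other members), Mrps12, of the decoding centre (0.659), Mrps7 (0.635) and Mrpl10, which anchors the stalk (0.605), followed the family most closely. The lowest values were those of Mrps5 (-0.346), Mrpl24 (-0.210), Mrpl52 (-0.168) and Mrpl23 (-0.139). Whether they differ from 0 was not tested. These genes also differed in their correlation with the first principal component, taken without removal of the group means. It was -0.454 for Mrpl12, -0.664 for Mrps12, -0.442 for Mrps7 and -0.423 for Mrpl10, against 0.457 for Mrps5, 0.673 for Mrpl24, 0.425 for Mrpl52 and -0.102 for Mrpl23. Of the 78 members 57 had a value below 0. All these values share the libraries' depth, normalization and tissue composition, and they are given as a description.

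Other genes of mitochondrial translation were followed through lists of known genes. Of 5 further ribosomal proteins with other names, Dap3, Ptcd3, Chchd1, Aurkaip1 and Gadd45gip1, 0 were called in any averaged comparison, and 5 of 5 lay below 0 by genotype (median -0.039, lowest adjusted p 0.111, 2 lower at an unadjusted p under 0.05). Of 28 assembly and RNA modification factors, 3 rose and 1 fell in HT-labelled libraries, where 7.98% of all tested genes were called. The 12S rRNA methyltransferase Mettl15 rose by 0.30 ± 0.055 (limma adjusted p = 0.000183), the GTPase Mtg1 by 0.14 (0.00340) and the tRNA methyltransferase Nsun3 by 0.14 (0.00442), and the rRNA methyltransferase Mrm2 fell by 0.10 (0.0499).

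Of 22 mitochondrial tRNA charging enzymes, 2 rose by genotype, the tryptophanyl-tRNA synthetase Wars2 by 0.28 ± 0.046 (limma adjusted p = 5.3e-05) and the threonyl-tRNA synthetase Tars2 by 0.08 (0.0252). Of 19 genes of mitochondrial DNA copying and expression, 3 rose: the helicase Twnk by 0.12 ± 0.022 (0.000124), the polymerase Polg by 0.09 (0.0267) and Mterf2 by 0.15 (0.0287). The 2 of 22 lie near the background of 7.98%, and none of the 3 counts was tested against it. The 13 translation factors had 0 called by genotype in limma's test, with 1 higher and 1 lower at an unadjusted p under 0.05. The 13 proteins encoded in mitochondrial DNA, the products of this ribosome, had 0 called in limma's test and 2 lower at an unadjusted p under 0.05, with 2 of 13 above 0 and a median of -0.059. Inhibitory neuron markers were above 0 for 8 of 8 genes in this comparison (median 0.27), oligodendrocyte markers for 9 of 9 (0.17) and excitatory neuron markers for 0 of 9 (-0.11), none called, and their part in these values was not tested.

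With lithium, where 4.41% of all tested genes were called, 1 of 13 translation factors rose, the elongation factor Tufm, by 0.09 ± 0.025 (limma adjusted p = 0.0278). Of the 28 assembly factors the endoribonuclease Ybey rose by 0.14 (0.0408) and Ngrn fell by 0.12 (0.00815). Of the 13 mitochondrially encoded messages mt-Nd6 rose by 0.20 ± 0.053 (0.0165). mt-Nd6 lies on the opposite strand from the others, and whether reads were assigned by strand is not given in the sources used here. With fluoxetine and between sexes 0 genes of these lists were called in limma's test. At an unadjusted p under 0.05 each list had 0 to 3 genes higher and at most 1 lower with fluoxetine. In females each list had at most 1 higher and 0 to 2 lower. Of all tested genes 6.63% were higher and 5.3% lower with fluoxetine at that level, and 3.84% and 4.01% in females. The lists held from 5 to 28 tested genes, and their counts were not tested against these shares.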

How the data were processed

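Poly(A) RNA of 59 libraries was sequenced after a strand-specific kit (per the labels' protocols). The authors deposited normalized counts (a signal of Salmon estimates divided by a library factor, not whole numbers) of 51456 genes. Salmon 0.11.2, R 3.6.0, DESeq2 1.19.11 and GRCm38 are named in the submitters' processing notes, without their roles. No column was left out.

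Groups came from the sample titles. Genes with a mean of at least 10 (16839) were fitted as log2(value + 1) with limma 3.58.1 in R 4.3.3 (12 group means, trend and robust shrinkage), and 27 contrasts were adjusted by Benjamini-Hochberg over all genes. Fold changes are on the log2(value + 1) scale. No count model was used, because the values are not whole. The fit was run on simulated data with noise drawn independently for each gene and library. That noise held no tissue composition and no link between libraries, so the run does not cover them. Lengths and positions came from GENCODE M21, promoters from RefSeq, and pseudogene copies were searched with blastn 2.17.0+. Of the IDs, 51285 matched a symbol.

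The members, gene lists and marker lists were chosen with earlier results of these data known. Named genes were, in each averaged comparison, all members called, or where fewer than 4 were called the 3 of lowest p in each subunit as well; the 5 highest and 5 lowest per kilobase; the Mrps18 paralogues; members called in 1 stratum or interaction; and of each list up to 3 called genes per direction. Others (the most and least variable, and those that covary most) were named after their values were seen. The alternatives were shrinkage, TMM factors, no filter on low values, pseudocount 0.5, only the groups compared, a replicate block, 2 composition covariates, leaving out 8 libraries and leaving out each library. At an estimated depth of 25766836 to 36884385 reads, the lowest value of a member in any library was 70.3 normalized counts.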

Additional observations from a re-analysis of the deposited data

Results flagged for a closer look

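In 12 of 132 tests (11 measures in 12 groups: the 2 subunit means, their difference and the 8 called genes), 1 library stood farther from the others of its group than Dixon's 95% limit allows. About 1 test in 20 does so by chance, and the reasons were not tested. The mean log2 level of the large subunit was 9.41 in WT-labelled lithium female 3 (others 9.37 to 9.38) and 9.33 in WT-labelled lithium male 2 (others 9.38 to 9.40), a library of high striatal marker level. Mrpl33 was at 435 normalized counts in HT-labelled lithium female 4 (others 501 to 525), at 489 in WT-labelled lithium male 4 (others 562 to 591) and at 717 in WT-labelled vehicle male 3 (others 513 to 570). Mrps10 was at 712 in HT-labelled vehicle male 1 (others 631 to 648), at 483 in WT-labelled lithium male 1 (others 530 to 546) and at 547 in WT-labelled vehicle male 2 (others 608 to 622). Mrpl28 was at 938 in HT-labelled lithium male 1 (others 788 to 828), also a library of high striatal marker level. Mrpl57 was at 473 in WT-labelled vehicle male 1 (others 538 to 559). Mrps24 was at 455 in HT-labelled lithium female 4 (others 361 to 386), the library that was also low for Mrpl33. Mrps27 was at 651 in HT-labelled fluoxetine female 1 (others 698 to 705), a library of high striatal marker level. The calls of Mrpl33, Mrps10, Mrpl57, Mrps27 and Mrpl28 held without each of these libraries in turn.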

How the results depend on the processing

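The genotype calls of Mrpl33, Mrpl23 and Mrps10 and the lithium calls of Mrpl57, Mrpl16 and Mrps27 held under every alternative run and in all 59 fits without 1 library, and Mrpl28 failed only without the 8 libraries of high striatal marker level. Leaving out 1 library gave 3 to 5 members called for genotype (5 without HT-labelled vehicle male 5), 0 to 1 for fluoxetine (Mrps26, without HT-labelled fluoxetine male 4 or vehicle male 1) and 4 to 8 for lithium (7 without HT-labelled lithium female 4 or vehicle female 3, 8 without WT-labelled lithium male 2 or 5). For genotype it gave 0 to 2 in fluoxetine libraries (2 without fluoxetine male 5 of either label), 0 to 1 in lithium libraries (Mrps10, without HT-labelled lithium female 1 or male 1 or WT-labelled female 3) and 0 to 2 in fluoxetine males (without fluoxetine male 5 of either label). For fluoxetine in WT-labelled libraries it gave 0 to 2 (1 without HT-labelled vehicle male 1, 2 without WT-labelled fluoxetine male 5) and in WT-labelled males 0 to 2 (without WT-labelled fluoxetine male 3 or 5).

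For genotype in fluoxetine libraries, Mrps24 was lost and 0 members were called with no filter on low values (adjusted p = 0.0728), with only the groups compared (0.0584), with the striatal level as covariate (0.0587) and without the 8 libraries (0.101), and 2 were called with the first principal component as covariate. That covariate also gave 1 call for genotype in lithium libraries (Mrps10), 1 for fluoxetine in WT-labelled libraries (Mrps26), 2 for genotype in fluoxetine males (Mrpl53, Mrpl47) and 2 for fluoxetine in WT-labelled males (Mrpl14, Mrpl28), and it turned the small subunit's lithium median to -0.003. Summing members with their copies, an alternative chosen after seeing the data, reduced Mrpl23 to 0.14. Same-numbered libraries of different groups deviated together weakly (median r 0.048 over 319 pairs, -0.019 over 1276 pairs of other numbers), and more so among HT-labelled libraries (0.25 against -0.063) than among WT-labelled ones (0.019 against -0.015). Of 59 libraries, 23 were closest to one of their own number, which 20% of the pairs share. Single pairs went down to -0.370 and the labels give the number no meaning, so the libraries were not treated as paired; the link in the HT-labelled ones is a hint from the data, not the design. A replicate block raised the fluoxetine count from 0 to 1 (Mrps26, adjusted p = 0.0444), also in WT-labelled libraries (1, 0.0246), and added Mrpl37 for genotype and Mrps21 for lithium. The causes of these changes were not tested. Of all tested genes the alternatives called 877 to 1828 by genotype (1344 as reported), 1 to 43 with fluoxetine (11) and 483 to 1472 with lithium (742). Under TMM factors the all-gene median shifted by no more than 0.00797.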
